A study of Mus musculus with 20 samples.

Results

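The contrast described here sets the capture ratio of RPL10A against that of RPL22, transcript by transcript, in E14 cells, a pluripotent embryonic stem cell line of the mouse. A capture ratio is the log2 footprint density on ribosomes pulled down through a tagged ribosomal protein, minus the log2 density on all ribosomes of the same cells. Members were the transcripts listed in the files of both tagged lines, 7840 of the 9498 listed anywhere in the series. The Rpl10a line listed 8505 transcripts and the Rpl22 line 8588. Of these, 665 and 748 were not listed in the other of these 2 lines and could not enter the contrast.

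Ribosome profiling sequences the mRNA fragments that ribosomes shield from RNase. Footprint density of a transcript therefore follows the ribosomes on all its copies together. It depends on the amount of the mRNA as well as on the ribosomes per copy. RPL10A (uL1) belongs to the L1 stalk, the mobile arm of the large subunit beside the exit site for tRNA. RPL22 (eL22) lies on the outer surface of the large subunit, and HA-tagged RPL22 is widely used to capture ribosomes from chosen cells. The contrast asks whether captures through 2 proteins of the same subunit recover the same mRNAs relative to all ribosomes.

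The contrast drew on 8 libraries, 2 in each of 4 groups. The RPL10A immunoprecipitation (IP) used anti-FLAG M2 beads for 2 h on cells with 1 allele of 3xFLAG-Rpl10a, and its reference was all ribosomes of those cells, pelleted through sucrose (total). The RPL22 IP used an anti-HA antibody for 4 h and Protein A beads for 1 h on cells with 1 allele of Rpl22-3xHA, and its reference was that line's total libraries. The labels name the anti-HA antibody for the Rpl22 total libraries as well, although their titles call them total, and the groups here follow the titles. All cells received 100 µg/ml cycloheximide, which holds ribosomes on the mRNA, for 1 min before harvest. The lysis buffer listed 0.1 mg/ml heparin for the Rpl10a line and none for the Rpl22 line. The submitters' processing notes name STAR for the Rpl22 line and not for the Rpl10a line. Line, tagged protein, tag, antibody, buffer and the tools named for read processing changed together, so the parts they play in the contrast cannot be told apart. Only 1 allele carried the tag in either line, so ribosomes with the untagged protein were present too, and the labels do not say whether a line was 1 clone or whether replicates were separate cultures. P-values therefore measure the spread between these libraries, which may be technical.

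The files hold RPKM values (reads per length of transcript and per size of library) rounded to 1 decimal. The sums of the 8 libraries ranged from 1082511 to 1201737 RPKM, and the median member lay between 26.6 and 28.25 RPKM in each. Read depth is unknown, as no counts were given. The reference tables paired 0 identifiers with gene names, so transcripts go by their UCSC identifiers, no sequence is shown, and neither the tagged genes nor stem cell markers were checked. Values are shares of a library: more footprints on one transcript and fewer on the rest cannot be told apart.

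With all 8 libraries the test called the capture ratios of RPL10A and RPL22 different for 141 transcripts, a count that fell to 0 without 1 library in 5 of 8 cases and to 11 without a variance trend. The RPL10A ratio was the higher one in 64 transcripts (0.816% of those tested) and the lower one in 77 (0.982%), together 1.8% (limma interaction test, Benjamini-Hochberg adjusted p below 0.05 over 7840 transcripts). The 64 higher transcripts had a median log2 difference of 1.27, with a range from 0.72 to 2.92, and 46 of them differed by more than 2-fold. The 77 lower transcripts had a median of −1.09, with a range from −2.63 to −0.69, and 50 of them differed by more than 2-fold. Called or not, 1.95% of all members had an RPL10A ratio more than 2-fold above the RPL22 ratio and 1.93% one more than 2-fold below. Over all members the median difference was 0.05, and 90% of the differences lay between −0.75 and 0.77.

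The calls had adjusted p-values close to the threshold. The smallest limma adjusted p was 0.0221, and the adjusted p of the last call, 0.0496, was followed by 0.0504 for the next transcript. At an adjusted p below 0.1 limma called 742 transcripts, 342 higher and 400 lower, and at 0.01 it called 0. Without adjustment, 1930 transcripts (24.6%) had a p below 0.05, and 392 would if no transcript differed. The median SE of a difference was 0.23, which gives a 95% interval of about 0.52 either side. For 5075 transcripts (64.7%) that interval lay within 2-fold in both directions. For 2624 of those not called it reached beyond 2-fold, so the missing call does not show that the captures held them alike.

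**Figure D1:**
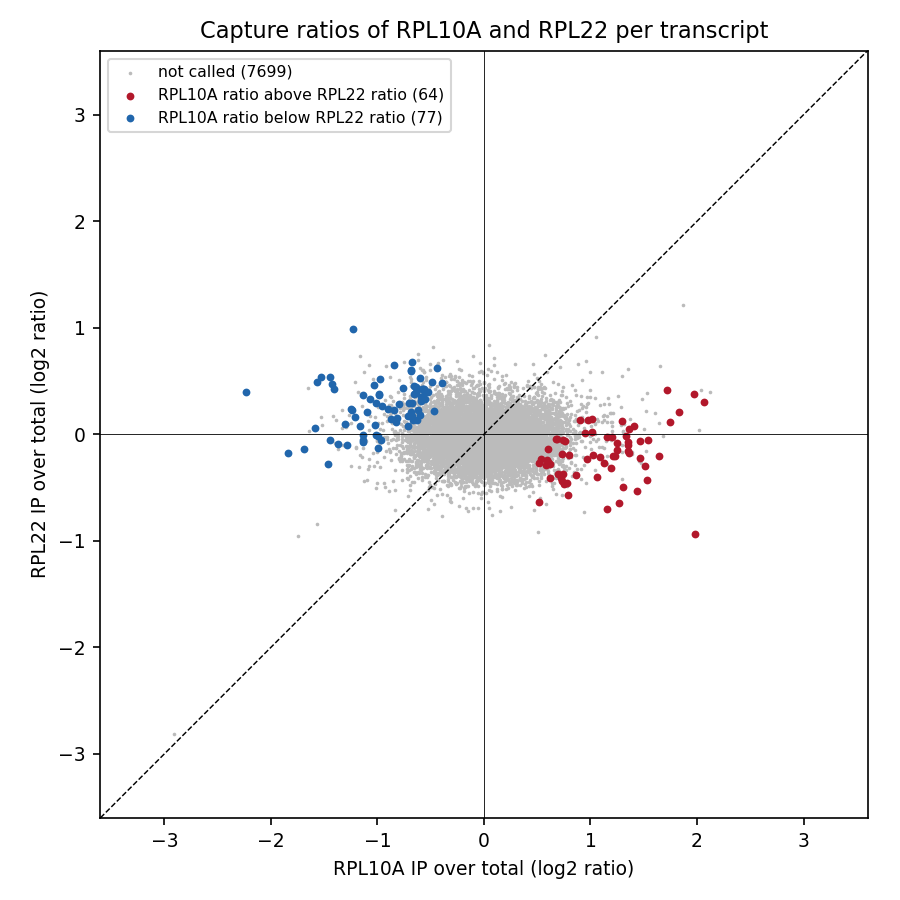
Each point is 1 of 7840 transcripts, with the RPL10A IP over total log2 ratio on the x axis and the RPL22 IP over total log2 ratio on the y axis; the dashed line marks equal ratios. The 64 called higher (red) lie right of zero and the 77 called lower (blue) left of it, and the cloud is wider along the RPL10A axis (SD 0.42) than along the RPL22 axis (SD 0.22).

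By the rule used for naming, the transcripts given in full are the 2 most different in each direction among those called, at or above the median level, and with a difference of the same sign in all 16 combinations of 1 library per group. The rule left 91 transcripts, 37 higher and 54 lower. In the whole set 41.9% of transcripts had the same sign in all 16 combinations, as did all 141 called ones, which a call nearly requires.

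uc012gcr.1 had 74.8 and 109 RPKM in the RPL10A IP, against 23.9 and 40.4 RPKM in the Rpl10a total libraries. In the Rpl22 line it had 134.1 and 140.2 RPKM in the IP, against 167.9 and 169.7 RPKM in the total libraries. The IP libraries thus lay above their totals in the Rpl10a line and below them in the Rpl22 line, with no overlap in either. The RPL10A ratio was 1.51 and the RPL22 ratio −0.30, a difference of 1.81 (SE 0.33, 95% interval 1.08 to 2.53, limma adjusted p = 0.0411). In tables that were normalized separately, all 4 libraries of the Rpl22 line had a higher density of this transcript than any library of the Rpl10a line.

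uc008hgg.2 had 65.9 and 56.5 RPKM in the RPL10A IP, against 18.3 and 31.7 RPKM in the Rpl10a total libraries. In the Rpl22 line it had 59.1 and 74.6 RPKM in the IP, against 100.6 and 87.7 RPKM in the total libraries. The 2 IPs overlapped in level, while the 2 totals stood far apart. Its RPL10A ratio was 1.30 and its RPL22 ratio −0.49, a difference of 1.80 (SE 0.32, 95% interval 1.08 to 2.51, limma adjusted p = 0.0410).

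uc029spb.1 had 26.1 and 15.6 RPKM in the RPL10A IP, against 76.3 and 50.2 RPKM in the Rpl10a total libraries. In the Rpl22 line it had 42.3 and 56.6 RPKM in the IP, against 32.5 and 36.6 RPKM in the total libraries. Here both pairs moved in opposite directions without overlap, to a lower level in the RPL10A IP and a higher one in the RPL22 IP. The RPL10A ratio was −1.57 and the RPL22 ratio 0.49, a difference of −2.06 (SE 0.37, 95% interval −2.88 to −1.24, limma adjusted p = 0.0410).

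uc008sjh.2 had 46.4 and 45 RPKM in the RPL10A IP, against 145.7 and 109.7 RPKM in the Rpl10a total libraries. In the Rpl22 line it had 93.6 and 82.3 RPKM in the IP, against 55 and 65.9 RPKM in the total libraries. It had the smallest p of all 7840 transcripts, with an RPL10A ratio of −1.45, an RPL22 ratio of 0.54 and a difference of −1.98 (SE 0.22, 95% interval −2.48 to −1.49, limma adjusted p = 0.0221). Its RPL10A IP libraries were the lowest of the 8 and its Rpl10a total libraries the highest.

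**Figure D2:**
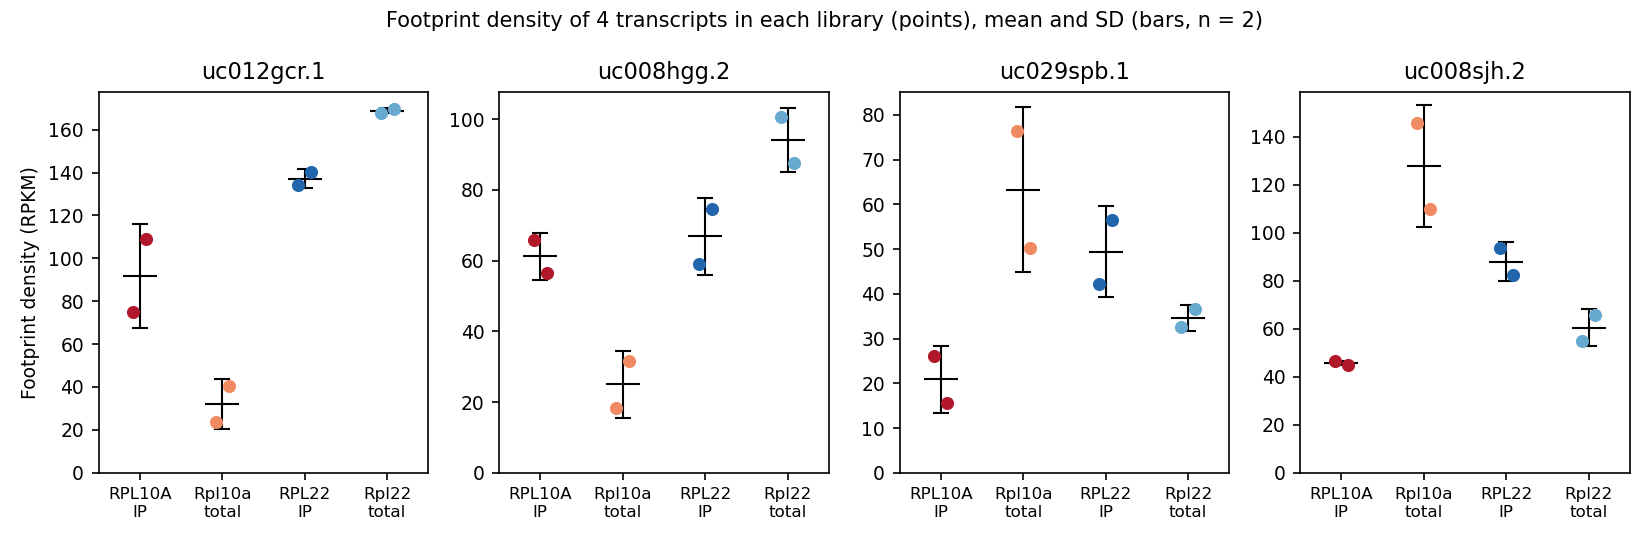
Footprint density (RPKM, linear axis from 0) of the 4 named transcripts in each of the 8 libraries; points are libraries, bars the mean and SD of 2. In the left 2 panels the RPL10A IP lies above its total and the RPL22 IP below its own, as with 91.9 ± 24.2 against 32.1 ± 11.7 RPKM and 137 ± 4.31 against 169 ± 1.27 RPKM for uc012gcr.1, and in the right 2 panels both orders are turned round.

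Across the called transcripts the RPL10A ratio carried the larger part of the difference. It was the ratio of larger size in 63 of the 64 higher transcripts and in 73 of the 77 lower ones, against 68.7% of all members. The higher transcripts had a median RPL10A ratio of 1.11 and a median RPL22 ratio of −0.20. The lower ones had a median RPL10A ratio of −0.85 and a median RPL22 ratio of 0.29. All 64 higher transcripts had an RPL10A ratio above 0 and all 77 lower ones a ratio below 0. Among all 7840 members that ratio was above 0 in 3938 and below 0 in 3900. These ratios are terms of the contrast that made the calls, so they describe the calls and support nothing.

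The RPL22 ratio is subtracted in the same contrast, so the choice of large differences also draws it to the opposite side, and its values are a description too. It was below 0 in 51 of the 64 higher transcripts and above 0 in 64 of the 77 lower ones. Over all 7840 members it was below 0 in 4423 and above 0 in 3415. The 2 captures had opposite signs in 79.7% of the higher and 83.1% of the lower transcripts, against 50.4% of all members. RPL22 ratios lay within 1.2-fold of no change in 38 of the 64 higher and 35 of the 77 lower transcripts, against 6156 of all 7840 members. The RPL22 IP and total libraries did not overlap in 70.3% of the higher and 83.1% of the lower transcripts, against 53.3% of all members. Both captures departed by more than 1.5-fold in opposite directions in 19 transcripts in all, 5 with RPL10A up and 14 with RPL10A down. Both departed by more than 1.5-fold the same way in 13, 9 up and 4 down. Past 1.5-fold in one capture taken alone, RPL10A counted 627 transcripts up and 547 down, and RPL22 counted 49 up and 33 down.

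The same differences can be read as gaps between the lines, first in the IP libraries and then in the total libraries. For the higher transcripts the IP level of the Rpl10a line minus that of the Rpl22 line had a median of 0.31 on the log2 scale (above 0 in 42 of 64), while the same gap in total level had a median of −0.87 (below 0 in 55 of 64). For the lower transcripts the median IP gap was −0.47 (below in 62 of 77) and the median total gap 0.72 (above in 67 of 77). The gap was larger in IP than in total libraries in 35.9% of the higher and 44.2% of the lower transcripts, against 45.2% of all members, so the lower list was near the share of all members. Over all members the medians were 0.05 for the IP gap and 0.02 for the total gap. Of all 7840 members, 4216 had an IP gap above 0 and 3624 one below. The total gap was above 0 in 4040 and below 0 in 3799. The lines' tables were normalized separately, so these levels are set side by side without a test.

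Median levels show the same layout. The higher transcripts had a median of 63.4 RPKM in the RPL10A IP and 29.2 RPKM in the Rpl10a total libraries, against 49.5 RPKM in the RPL22 IP and 50.4 RPKM in the Rpl22 total libraries. The lower transcripts had a median of 42.5 RPKM in the RPL10A IP and 73 RPKM in the Rpl10a total libraries, against 56.3 RPKM in the RPL22 IP and 43.1 RPKM in the Rpl22 total libraries. In both lists the lowest and the highest of the 4 medians were those of the Rpl10a line.

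**Figure D3:**
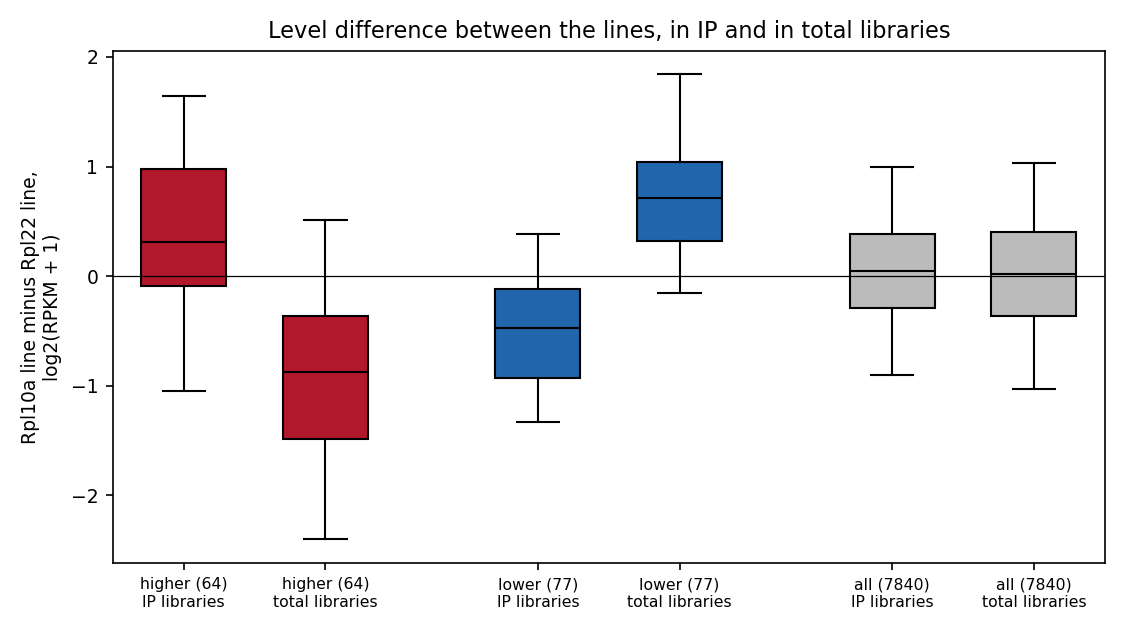
Level of the Rpl10a line minus that of the Rpl22 line on the log2(RPKM + 1) scale, in IP and in total libraries, for transcripts called higher, called lower and all 7840; boxes span the quartiles with the median, whiskers the 5th to 95th percentile. The medians are 0.31 (IP) and −0.87 (total) for the higher list, and −0.47 and 0.72 for the lower list.

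A further tagged line measured the same transcripts without sharing a library with the contrast. RPS25 (eS25), a protein of the small subunit, was captured with the same anti-FLAG beads as RPL10A from cells with 1 allele of Rps25-3xFLAG. Of the 64 higher transcripts 50 were listed for that line, and 46 of these had an RPS25 capture ratio above 0, with a median of 0.47. Of the 77 lower transcripts 71 were listed, and 66 had an RPS25 ratio below 0, with a median of −0.37. Over the 7605 members listed in all 3 lines, 50.5% had an RPS25 ratio above 0 and the median was 0.00.

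The relation ran through the whole range and not just through the calls. Across the 7605 transcripts the difference between RPL10A and RPL22 correlated with the RPS25 ratio with r = 0.50 (Spearman rho 0.51), a description only, since transcripts are not independent replicates. The RPL10A ratio alone gave r = 0.55 and the RPL22 ratio alone r = −0.04. From the lowest to the highest decile of the difference, the median RPS25 ratio ran from −0.27 to 0.31 and the share above 0 from 18.8% to 83.7%. In the 2 highest quintiles of level r was 0.56, and there 26 of 27 higher transcripts had an RPS25 ratio above 0 and 40 of 42 lower ones a ratio below 0. Without the second RPL10A IP library r was 0.41. The RPS25 and RPL10A captures shared beads, tag, the heparin buffer and the tools named for read processing, and the part of these in the relation was not tested.

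The total libraries of the Rps25 line stood nearer to those of the Rpl10a line than to those of the Rpl22 line in 82% of the 50 higher and 66.2% of the 71 lower transcripts, against 73.4% of all members, so the higher list lay above that share and the lower list below it. For the higher list the Rps25 total level minus the Rpl10a total level had a median of 0.20, and minus the Rpl22 total level a median of −0.56. For the lower list these medians were −0.16 and 0.36. Transcripts without an entry for the Rps25 line made up 14 of the 64 higher ones (21.9%) and 6 of the 77 lower ones (7.79%), against 3% of all members. Of the named transcripts, uc008hgg.2 alone was listed there, with 72.9 and 86.7 RPKM in the RPS25 IP, against 79.8 and 55 RPKM in the Rps25 total libraries. Those values overlap, and its RPS25 ratio was 0.26.

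Polysome gradients offered another readout from other libraries. In wild-type cells given an Rpl10a siRNA or a control siRNA, mRNAs with at least 4 ribosomes (heavy pool) were sequenced apart from all lighter fractions (light pool). The deposited signal of these libraries has no settled unit, so lists are read against all members of the same readout. With Rpl10a siRNA, 19 of the 58 higher transcripts measured (32.8%) and 49 of the 71 lower ones (69%) had more signal in the heavy than in the light pool, against 61.2% of the 7489 members measured. The lower list was thus near the share of all members with this siRNA. The median heavy minus light difference was then −0.52 for the higher list and 0.35 for the lower one, against 0.19 over all members.

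With control siRNA the lists stood in the same order. On the heavy side were 19 of the 58 higher transcripts (32.8%, median −0.25) and 45 of the 71 lower ones (63.4%, median 0.34), against 49.2% of all members (median −0.02). Across members the difference between the captures and this heavy minus light difference had r = −0.10 (Spearman rho −0.13), and within the 2 highest quintiles of level r = −0.06. There 12 of 33 higher (36.4%) and 30 of 42 lower transcripts (71.4%) were on the heavy side, against 63.6% of all at that level. The lower list was thus near the share of all at that level. The shift between siRNAs (Rpl10a siRNA minus control siRNA) had a median of −0.08 in the higher list and −0.07 in the lower one, against 0.09 over all members, so both lists lay on the same side. The shift correlated with the difference between the captures with r = 0.07. With the RPL10A ratio alone the shift had r = −0.03, and with the RPL22 ratio alone r = −0.20. In that order the heavy minus light difference had r = −0.06 and 0.12 with control siRNA, and −0.09 and −0.0015 with Rpl10a siRNA. These too are descriptions with no test.

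Both named lower transcripts had heavy values above their light ones with control siRNA. uc029spb.1 had a deposited signal of 46 and 50.8 in the heavy and 31.9 and 28.9 in the light pools with Rpl10a siRNA, against 68.1 and 66.3 in the heavy and 29.5 and 23.8 in the light pools with control siRNA. uc008sjh.2 had 59.4 and 63.1 in the heavy and 59.5 and 52.2 in the light pools with Rpl10a siRNA, which overlap, against 89.6 and 77.1 in the heavy and 59.5 and 50.1 in the light pools with control siRNA. Only uc029spb.1 of these 2 had heavy and light values apart with both siRNAs.

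uc012gcr.1 lay on the light side throughout, with 54 and 60.1 in the heavy and 98.4 and 94.1 in the light pools with Rpl10a siRNA, against 46.6 and 58.4 in the heavy and 93.2 and 99.6 in the light pools with control siRNA. uc008hgg.2 had 9 and 18 in the heavy and 15.1 and 30.7 in the light pools with Rpl10a siRNA, against 19.4 and 32.9 in the heavy and 28.7 and 39.9 in the light pools with control siRNA. Its heavy and light values overlapped with either siRNA. Taken by replicate number, the heavy value was below the light one each time, though no label gives these numbers a meaning.

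**Figure D4:**
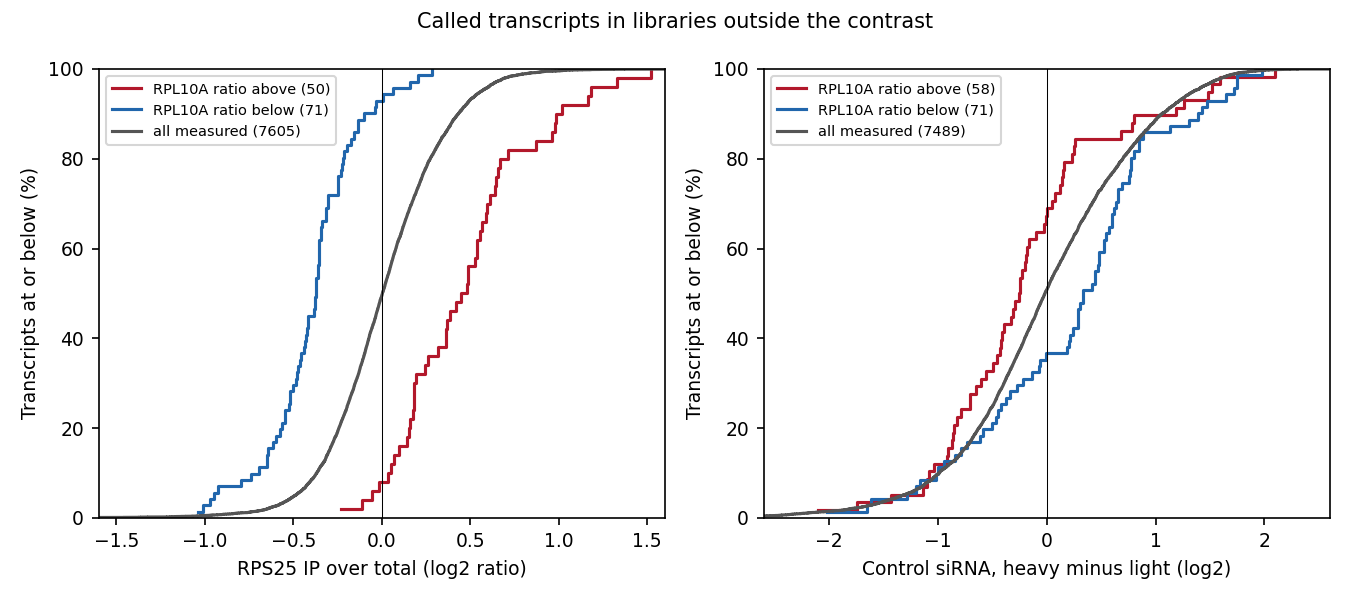
Cumulative share of transcripts (%) by RPS25 IP over total log2 ratio (left) and by heavy minus light log2 difference with control siRNA (right), for the transcripts called higher, called lower and all measured. In the left panel 46 of 50 higher transcripts lie above 0 and 66 of 71 lower ones below 0; in the right panel the medians are −0.25, 0.34 and −0.02.

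Calls became more frequent with level. With transcripts split into quintiles of mean level, 1.02% were called in the lowest (16 transcripts, 10 higher and 6 lower) and 3% in the highest (47 transcripts, 19 and 28). The SD of the difference went the other way, with 0.55 in the lowest and 0.41 in the highest quintile, as did the median SE, with 0.30 and 0.18. Low transcripts had a median difference of 0.16 (lowest quintile) and abundant ones of −0.02 (highest). In the lowest quintile the median RPL10A ratio was 0.07 and the median RPL22 ratio −0.06. A library below 5 RPKM occurred in 15 of the 141 called transcripts and in 832 of the 7840 members, which is about the same share.

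The 2 lines varied unequally. The median SD between replicates was 0.16 in the RPL10A IP and 0.14 in the Rpl10a total libraries, against 0.09 in the RPL22 IP and 0.08 in the Rpl22 total libraries. Estimated over all transcripts, the variance of the Rpl10a line was 3.11 times that of the Rpl22 line. A fit that let the lines differ in variance called 214 transcripts, 97 higher and 117 lower, and 139 of the 141 were among them. The difference computed from the libraries numbered 1 correlated with that from the libraries numbered 2 with r = 0.47 across transcripts, and 67.1% had the same sign.

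The number of calls depended on single libraries. Each fit without 1 library leaves a group of 1, which is assumed to vary like the others. The lines did not meet that assumption, as the variance of the Rpl10a line was 3.11 times that of the Rpl22 line. Such a fit is also no longer balanced, so its pooled variance is not the mean of both lines' variances. The part of this in the counts was not tested. Limma called 748 transcripts without the first RPL10A IP library, 190 without the second, 765 without the second Rpl10a total library and 0 without the first. Without any 1 of the 4 libraries of the Rpl22 line it called 0, and between 1086 and 1401 passed an unadjusted p below 0.05, as did 1275 without the first Rpl10a total library. The called differences were at least 0.61 in size in each of these 8 fits; their sign could not change there, since it was the same in all 16 combinations of libraries. Scaling the libraries to equal totals turned the balance to 73 higher and 54 lower, and aligning the library medians gave 46 and 59. Of the calls, 99 were made under all 3 scalings, 46 higher and 53 lower.

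**Figure D5:**
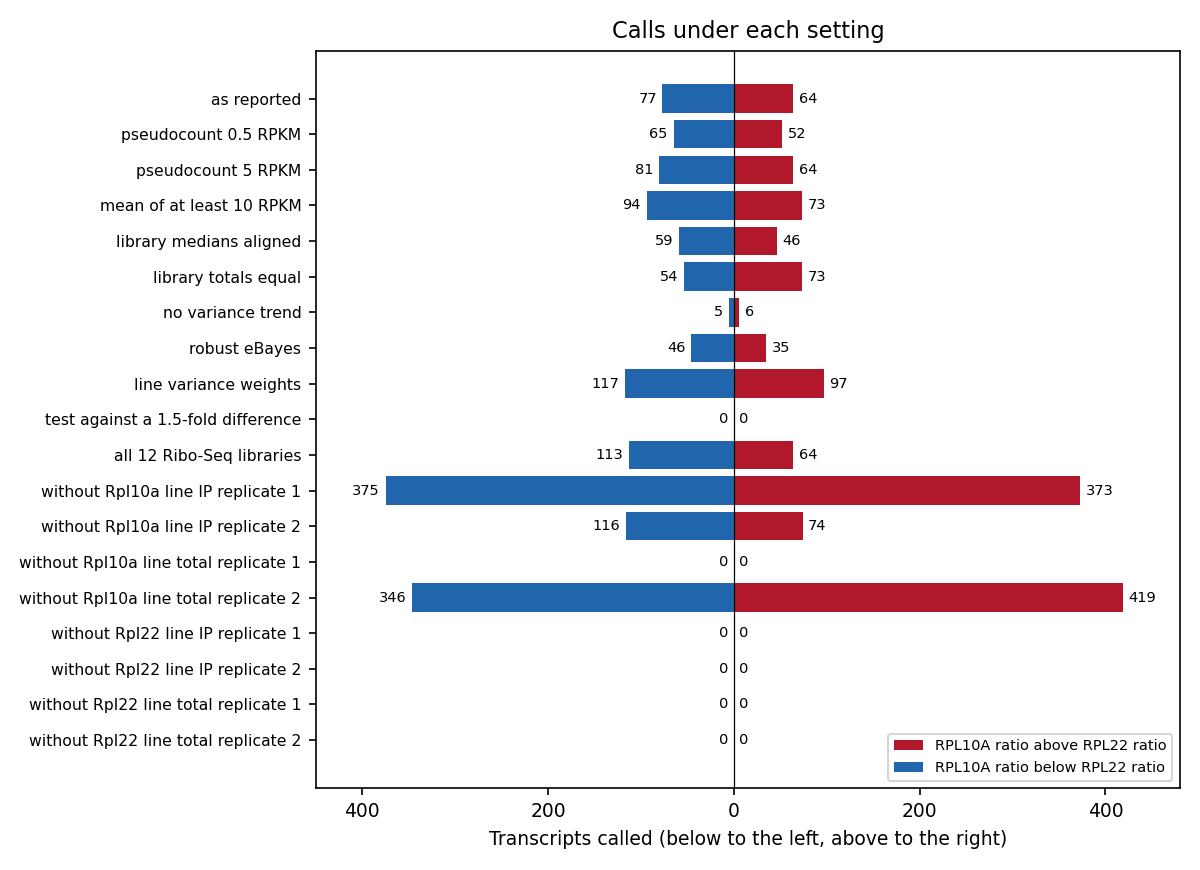
Number of transcripts called with an RPL10A ratio above (red, to the right) or below (blue, to the left) the RPL22 ratio as reported and under other settings, limma adjusted p below 0.05. The fits with a replicate block are not drawn. The counts as reported are 64 and 77; they run to 419 and 346 without the second Rpl10a total library and to 0 without any library of the Rpl22 line, without the first Rpl10a total library and in a test against a 1.5-fold difference.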

How the data were processed

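The authors deposited RPKM values per transcript for the Ribo-Seq libraries, as the file headers state. The RNA-seq files call their deposited values RPM, but some columns sum to more than RPM allows, so those values are named signal here. The submitters' processing notes name cutadapt, Bowtie2 and the mm10 build, plus STAR for the Rpl22 line and the RNA-seq arm, without versions. How transcripts were filtered, annotated and counted was not given in the sources used here.

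Whole counts were not recovered, so no count test was run. Groups followed the sample titles. The 8 libraries were joined on the identifiers common to both lines and fitted with limma 3.58.1 in R 4.3.3 on log2(RPKM + 1), with 1 mean per group, moderated variances and a variance trend. The contrast was RPL10A IP minus total, minus RPL22 IP minus total, tested two-sided. A fold change on this scale understates changes of low transcripts. One pooled variance equals the mean of both lines' variances, which is what this balanced contrast needs. The fit was tested on simulated data with independent noise in all 8 libraries. That test does not cover noise shared between transcripts, or fits with a library left out. No replicate block was used, as the labels link replicate numbers to no culture or date. Replicates shared at most 1.4% identical values. The members, the named-transcript rule (2 per direction among calls at or above the median level, with 1 sign in all 16 combinations of libraries), the pseudocount and the variance trend were chosen with earlier results of these data known. Alternatives covered pseudocounts of 0.5 and 5 RPKM, a minimum mean of 10 RPKM, 2 scalings, the variance model, a 1.5-fold test, all 12 Ribo-Seq libraries, replicate blocks and single libraries left out. Medians, signs and correlations over lists are descriptions with no test.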

Additional observations from a re-analysis of the deposited data

Results flagged for a closer look

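The effect of capture differed between the 2 tagged lines by the interaction test for 64 transcripts with an RPL10A ratio above the RPL22 ratio and for 77 with an RPL10A ratio below it (limma, adjusted p below 0.05). Among the named transcripts the log2 difference between the lines' ratios was 1.81 for uc012gcr.1, 1.80 for uc008hgg.2, −2.06 for uc029spb.1 and −1.98 for uc008sjh.2. These 4 were chosen for 1 sign in all 16 combinations of libraries, over which the difference ran from 1.13 to 2.48 for uc012gcr.1, 1.04 to 2.55 for uc008hgg.2, −3.0 to −1.12 for uc029spb.1 and −2.43 to −1.54 for uc008sjh.2.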

How the results depend on the processing

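The count of calls changed with the setting. The sign of a called difference could not change with the variance model, the 1.5-fold test, the replicate blocks or a library left out, and did not change under the pseudocounts, the minimum level, the scalings or all 12 libraries. Against 141 calls (64 higher, 77 lower), limma called 11 (6 and 5) without a variance trend, 81 (35 and 46) with robust moderation, 214 (97 and 117) with a variance per line, and 0 (0 and 0) in a test against a 1.5-fold difference, where 205 passed an unadjusted p below 0.05. Without single libraries the count ran from 0 to 765, the higher from 0 to 419 and the lower from 0 to 375. Pseudocounts of 0.5 and 5 RPKM gave 117 and 145, a mean of at least 10 RPKM gave 167, aligned medians 105, equal totals 127 and all 12 libraries 177 (64 and 113), each within 1.5 times of the count reported. Equal totals moved the median difference to 0.10. A replicate block left 37 calls (18 and 19), and a replicate block within each line 65 (26 and 39). Deviations of same-numbered IP and total libraries correlated with r = 0.01 in the Rpl10a line and 0.17 in the Rpl22 line. Between the lines such correlations ran from r = −0.34 (Rpl10a total with Rpl22 total) to 0.09 (RPL10A IP with Rpl22 total). No label gives a number meaning, so the numbers were not taken to pair libraries. The named differences were called in 47 of 77 alternative fits; their adjusted p ran from 0.0142 to 0.643 for uc012gcr.1, 0.0177 to 0.643 for uc008hgg.2, 0.0104 to 0.62 for uc029spb.1 and 0.00953 to 0.348 for uc008sjh.2. With 1 library left out the differences ran from 1.44 to 2.17, 1.42 to 2.18, −2.41 to −1.71 and −2.19 to −1.78 in that order. In size they were smallest without the first Rpl10a total library and largest without the second for uc012gcr.1, uc008hgg.2 and uc008sjh.2. For uc029spb.1 the size was smallest without the second RPL10A IP library and largest without the first. The correlation with the RPS25 ratio lay between 0.41 and 0.52. The cause of the spread in counts was not tested. Depth is unknown and limits what low transcripts can show.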

Other observations

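With the members sorted by UCSC identifier, 13 of the 141 called transcripts (9.22%) had another called one directly before or after them. For 9 of these 13 a neighbour was called in the same direction. Of all 7840 members, 276 (3.52%) had a called neighbour. The difference between the captures correlated with that of the next identifier with r = 0.12 across members. Whether such neighbours share a gene, sequence or reads was not tested, as no transcript positions were used here.

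Differences of more than 2-fold, called or not, were found for 304 transcripts, of which 96 were called. Their median mean level was 15.5 RPKM for those above and 15.8 RPKM for those below, against 27.9 RPKM over all members.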
